A study of Gossypium hirsutum with 17 samples.

Results

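A group of 56 probe sets of the Affymetrix Cotton Genome Array was lower in cotton seedlings under ABA, mannitol and high pH than in control seedlings, and higher under cold. The members were chosen by these changes themselves. A probe set was a member if its mean log2 signal, after quantile normalization of all 17 arrays, was at least 1 below the control mean in each of ABA, mannitol and pH and at least 1 above it in cold. A difference of 1 on the log2 scale is a 2-fold change. Of 24029 probe sets, 2392 were lowered by at least 1 in the 3 treatments whatever their change in cold, and 56 of them were also raised in cold. Over all 24029 probe sets, 3332 (13.9%) were raised by at least 1 in cold, a larger share than the 56 of 2392. The opposite rule, raised in the 3 treatments and lowered in cold, found 92. The changes in ABA, mannitol, pH and cold are therefore given as a description, without a test. The NaCl arrays took no part in the choice, and the comparison of NaCl with control is the only one tested, although the control arrays it uses did take part.

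The arrays measured RNA of whole seedlings of upland cotton, Gossypium hirsutum, on half-strength MS medium, with 3 arrays each for control, ABA, mannitol, cold and NaCl and 2 for pH. Control seedlings grew under normal conditions at 25°C. For ABA the medium (pH 5.8) contained 1 μM of the hormone, for drought 200 mM mannitol and for salinity 200 mM NaCl, and for alkalinity it was brought to pH 11. Each of these lasted 10 days at 25°C. Cold seedlings had 8 days at 25°C and pH 5.8 and then 2 days at 4°C, so that the cold was much shorter than the other treatments. All seedlings were 14 days from germination. Labels call the arrays of a group biological replicates, while the study's methods describe RNA pooled over the biological replicates of a treatment, so the spread given here is that between arrays and may be technical. In whole seedlings, fewer cells of a type and less of a transcript per cell cannot be told apart.

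ABA (abscisic acid) is the hormone through which plants respond to drought, and mannitol in the medium withdraws water from the root osmotically. Exposure to low but not freezing temperature sets off cold acclimation, in which CBF/DREB transcription factors switch on protective genes, partly together with genes of the ABA response. Many stress transcripts thus respond to cold and to ABA in the same direction, and the members here are defined by opposite directions.

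The deposited signals did not share 1 scale, and this bears on every fall described here. The mean signal, leaving out the lowest and the highest 2% of values on an array, was 497 to 498 in the 8 arrays of ABA, mannitol and pH, and 18.1 to 138 in the 9 arrays of control, cold and NaCl. A difference in processing between these 2 sets of arrays and a difference between the 3 treatments and control cannot be told apart. Control and cold arrays lay close together, at 106 to 125, as did NaCl replicates 2 and 3, at 138 and 122, while NaCl replicate 1, at 18.1, was far below them. With only these 9 arrays normalized, all 56 members were at least 1 higher in cold than in control, and their median rise was 1.54. The rule chose the members by these same control and cold arrays, so this is a description only. The log2 ratio of actin 3′ to 5′ probe sets, a sign of RNA quality that grows with degradation, lay between 2.78 and 3.05 in control, while ABA arrays had 4.46 to 5.31, mannitol arrays 2.85 to 3.97 and pH arrays 4.45 and 4.46. It was 3.82, 2.69 and 7.22 in cold replicates 1 to 3 and 4.79, 2.70 and 3.64 in NaCl replicates 1 to 3. Cold replicate 3 thus had the largest ratio of all arrays. The part of these differences in the members' changes was not tested. The names gave 8 probe sets for tissue markers. For the shoot, a photosystem II transcript (Gra.1806.1.S1_at) had means of 6.13 (control), 7.17 (ABA), 6.76 (mannitol), 7.73 (pH), 6.01 (cold) and 5.87 (NaCl). A nitrate transporter transcript, listed for the root by its name (Gra.2247.1.S1_at), stood at 9.36 (control), 6.04 (ABA), 5.38 (mannitol), 5.17 (pH), 7.15 (cold) and 7.44 (NaCl). Its second probe set, Gra.2247.2.A1_at, took the same course from 6.66 in control to between 2.62 and 3.13 in the 3 treatments. The photosystem II transcript was thus higher and the nitrate transporter transcript lower in the 3 treatments, and in cold the transporter was lower as well, unlike the members. Both were assigned to a tissue by name alone, so these values do not measure the share of shoot or root. The study itself reports Gra.2247.1.S1_at among the transcripts repressed under every stress it applied. Of 2 peroxidases, Ghi.1039.1.S1_s_at lay between 11.70 and 12.63 over the 17 arrays and Ghi.8136.1.S1_s_at near the floor, between -2.28 and 3.33. The fiber transcript E6 (Ghi.5.1.S1_s_at), which should be low in seedlings, lay between 6.32 and 8.07, and the 2 probe sets of the cellulose synthase CesA1 between 5.44 and 9.20 and between 0.97 and 5.02. For comparison, the median of all probe sets was 6.04 in each normalized array. The part of the tissue markers in the members' changes was not tested.

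None of the 56 members had a name. Names existed in the platform annotation for 743 of the 24029 probe sets and in the study's readable tables for another 653, together 5.81% of all. Probe set IDs carry some information of their own. Of the members, 17 IDs began with Ghi and 19 with GhiAffx, for sequences of G. hirsutum (43% and 26.9% of all probe sets). A further 6 began with Gra and 11 with GraAffx, for sequences of G. raimondii (14.2% and 15.2% of all), and 3 with GhirRNA. The last prefix belongs to the ribosomal RNA probe sets of the array, and there were only 4 of these. A suffix _s_at, for probes shared by several transcripts, was carried by 20 members (38.7% of all probe sets carry it), _a_at by 3 and _x_at by 2, so that signal from related transcripts is possible for these. The 22 lists of stress, hormone, signalling and metabolic genes were drawn from named probe sets only, so they could hold no member. They do not tell to which families the members belong. Of all probe sets, 9.95% were at least 1 lower in the 3 treatments and 13.9% at least 1 higher in cold. The largest lists were 46 kinases (1 lower in the 3 treatments, 11 higher in cold), 33 cell wall probe sets (10 and 1), 32 WRKY factors (0 and 14), 30 AP2/ERF, DREB and CBF probe sets (0 and 13), 21 calcium-related (0 and 3), 19 with F-box, U-box, RING or ubiquitin in the name (1 and 6), 17 NAC (1 and 5), 12 MYB (1 and 4) and 12 zinc finger proteins (0 and 8). Each of the other lists held fewer than 10 probe sets, among them 8 for sugar and starch (0 and 7). The lists were small, and these counts carry no test. Part of the names came from study tables of transcripts reported as changed on these same arrays. The counts of the lists can therefore not be read against the shares of all probe sets.

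**Figure D1:**
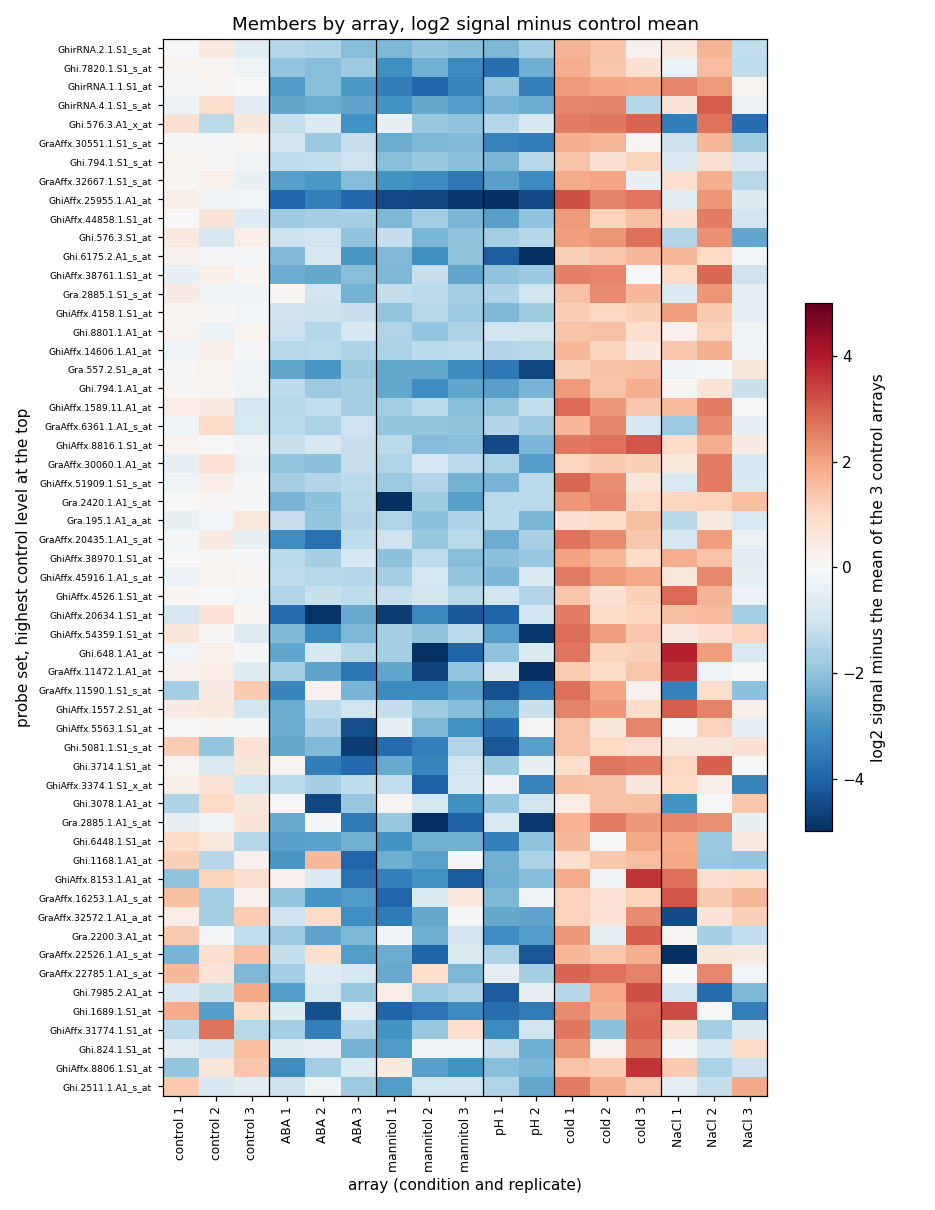
Log2 signal of the 56 members (rows, ordered by control level) in each of the 17 arrays (columns) minus the mean of the 3 control arrays, with blue for lower and red for higher values and colours that end at -5 and 5. Control arrays are even in most rows at the top, where the median SD between them is 0.30, and uneven at the bottom, near the floor of the signal, where it is 1.33. NaCl arrays, and cold arrays in some rows such as GhirRNA.4.1.S1_s_at (SD 2.24), are uneven also at the top.

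Over the members, the median change was -1.73 in ABA (3.32-fold lower, range -3.76 to -1.03), -1.95 in mannitol (3.86-fold lower, -4.63 to -1.01), -2.04 in pH (4.11-fold lower, -4.91 to -1.01) and 1.55 in cold (2.93-fold higher, 1.02 to 2.84). Over all probe sets the medians were near 0, between -0.05 and 0.00. On the deposited scale, without normalization, the medians of all probe sets were 2.09, 2.19, 2.11 and -0.27, and the members above control numbered 39 for ABA, 36 for mannitol and 30 for pH, and all 56 for cold. With median centring or scaling to the trimmed mean, all 56 were lower in the 3 treatments and higher in cold. The falls are thus relative to the bulk of the transcripts on each array. The fall was deepest in pH for 26 members, in mannitol for 20 and in ABA for 10. The falls in mannitol and ABA lay within 1 of each other for 44 members, those in pH and ABA for 42 and those in pH and mannitol for 44.

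The 8 arrays of ABA, mannitol and pH all lay below every control array for 34 members, against 17.1% of all probe sets. Every cold array lay above every control array for 33 members, against 18.9%. Both held for 27 members, against 0.803% of all probe sets. The rule used these contrasts, so these shares are a description only.

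Signal level separated the members. In the control arrays 19 members lay above the median of all probe sets (49.9% of all do), 13 between the 25th percentile and the median, 4.07 to 6.04, and 24 under the 25th percentile (25.3% of all do). The members above the median had a median SD between control arrays of 0.30, and 12 of the 19 had both groups of treatments apart from control. The 13 members of the middle range had an SD of 0.42, and 12 of them had the groups apart. The 24 low members had an SD of 1.33, and 3 had the groups apart. The share of all probe sets with the groups apart was not counted within these ranges. The rule used these contrasts, so the counts are a description only. In 24 members the means of ABA, mannitol and pH all lay under 2.33, the 10th percentile of all probe sets. Values of this size lie near the background of the array, and detection calls were not used here. The low members are therefore given mainly by their counts, and where one is named its low level is stated.

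Of the 4 ribosomal RNA probe sets, 3 were members. Ribosomal RNA forms the core of the ribosome and makes up most of the RNA of a cell, and the IDs do not say which subunit a probe set stands for. Whether the signal of these probe sets follows the amount of ribosomal RNA in the seedlings was not tested. The part of the actin ratios in their values was not tested either. GhirRNA.1.1.S1_at had a log2 signal of 10.12, 10.28 and 10.19 in control, 7.38, 8.07 and 7.31 in ABA, 6.74, 6.21 and 6.91 in mannitol, 8.22 and 6.77 at high pH and 12.34, 12.18 and 12.10 in cold. All 8 arrays of the 3 treatments lay below control and all 3 cold arrays above it, with an SD of 0.08 in control and 0.13 in cold. The changes were -2.61 in ABA, -3.58 in mannitol, -2.70 in pH and 2.01 in cold, and on the deposited scale they were -0.47, -1.31, -0.59 and 2.22, of the same signs.

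GhirRNA.4.1.S1_s_at was at 9.81, 10.99 and 9.54 in control, between 7.08 and 7.79 in the 8 arrays of ABA, mannitol and pH, and at 12.55, 12.59 and 8.68 in cold. The first 2 cold arrays were the high ones, and cold replicate 3 lay below every control array. GhirRNA.2.1.S1_s_at was at 11.38, 11.84 and 10.84 in control, between 9.09 and 9.93 in the 8 arrays, and at 13.06, 12.77 and 11.56 in cold. Its cold replicate 3 fell within the range of the control arrays. For both, the rise in cold thus rested on replicates 1 and 2. On the deposited scale GhirRNA.4.1.S1_s_at stayed lower in the 3 treatments (-0.41, -0.55 and -0.24), while GhirRNA.2.1.S1_s_at did not in ABA (0.28) and pH (0.02).

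The fourth ribosomal RNA probe set, GhirRNA.3.1.S1_s_at, was no member because its rise in cold was 0.56. It was at 7.66, 7.18 and 7.42 in control and 8.17, 7.92 and 7.84 in cold, and its changes were -1.85 in ABA, -2.54 in mannitol and -1.41 in pH, with 0.33, -0.19 and 0.76 on the deposited scale. The files do not say whether the 4 probe sets read separate rRNAs or parts of 1 precursor.

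**Figure D2:**
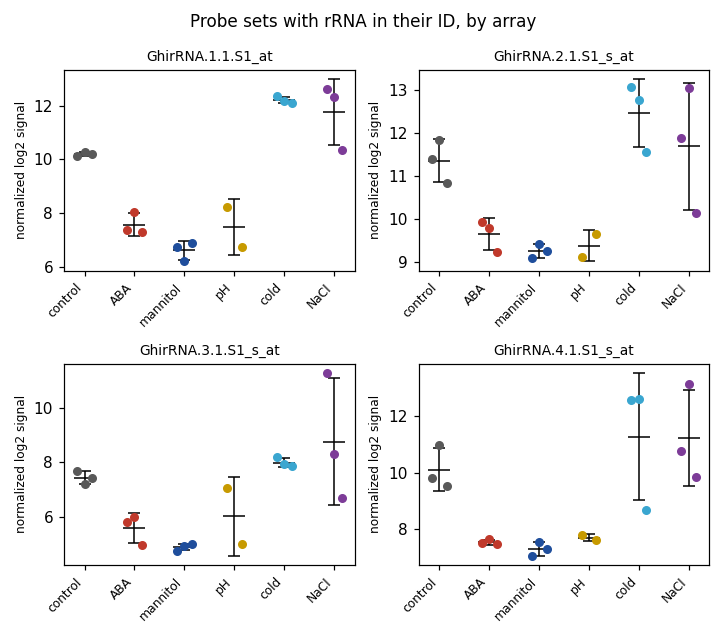
Normalized log2 signal (vertical axis) of the 4 ribosomal RNA probe sets in each array of the 6 conditions, with points for arrays and bars for mean ± SD. GhirRNA.1.1.S1_at has cold arrays between 12.10 and 12.34 and mannitol arrays between 6.21 and 6.91, and in GhirRNA.4.1.S1_s_at cold replicate 3, at 8.68, lies under the control arrays. On the deposited scale GhirRNA.2.1.S1_s_at and GhirRNA.3.1.S1_s_at are not lower in ABA and pH.

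Among members above the median signal, GhiAffx.25955.1.A1_at had both the largest rise in cold and the largest mean fall in the 3 treatments. It was at 8.63, 8.09 and 8.15 in control, 4.34, 4.88 and 4.37 in ABA, 3.79, 3.73 and 3.48 in mannitol, 2.95 and 3.81 at high pH and 11.48, 10.76 and 10.95 in cold. No array of a treatment overlapped with those of control. The changes of -3.76, -4.63 and -4.91 in ABA, mannitol and pH and 2.78 in cold made it the 1 member that also passed the rule on the deposited scale, with -1.67, -2.34, -2.81 and 2.97 there. No name or sequence of this transcript was among the tables used here.

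The next largest mean falls were deepest in pH. Gra.557.2.S1_a_at was at 6.31, 6.39 and 6.0 in control, 3.65, 3.32 and 4.36 in ABA, 3.67, 3.68 and 3.09 in mannitol, 2.66 and 1.68 at high pH and 7.43, 7.70 and 7.74 in cold. Both pH arrays lay below all other arrays, and the changes were -2.45, -2.75, -4.06 and 1.40. Ghi.6175.2.A1_s_at showed a like order, with 7.60, 7.29 and 7.30 in control, 5.21, 6.58 and 4.50 in ABA, 5.20, 4.33 and 5.40 in mannitol, 3.28 and 2.00 at high pH and 8.58, 8.75 and 9.02 in cold. Its fall was -1.97 in ABA, -2.42 in mannitol and -4.76 in pH, and its rise in cold was 1.38. The ABA arrays of this probe set were the most widely spread of the 3, with an SD of 1.06, and on the deposited scale its change in ABA was 0.20.

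Ghi.576.3 was read by 2 probe sets of opposite orientation, A1 and S1, and both were members with large rises in cold. Ghi.576.3.A1_x_at was at 10.66, 8.55 and 10.48 in control and 12.48, 12.55 and 12.83 in cold, a change of 2.72. Ghi.576.3.S1_at was at 7.91, 6.58 and 7.74 in control and 9.50, 9.62 and 10.17 in cold, a change of 2.35. Control replicate 2 was the lowest control array in both probe sets. In the 3 treatments Ghi.576.3.A1_x_at was at 8.76, 9.22 and 6.88 in ABA, 9.54, 8.00 and 7.90 in mannitol, and 8.46 and 9.10 at high pH, so that 4 of these 8 arrays lay above control replicate 2. Ghi.576.3.S1_at was at 6.36, 6.42 and 5.39, then 6.21, 5.12 and 5.40, then 5.71 and 5.99, and all 8 arrays lay below control. On the deposited scale both probe sets were higher than control in the 3 treatments, by 0.51 to 0.99.

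**Figure D3:**
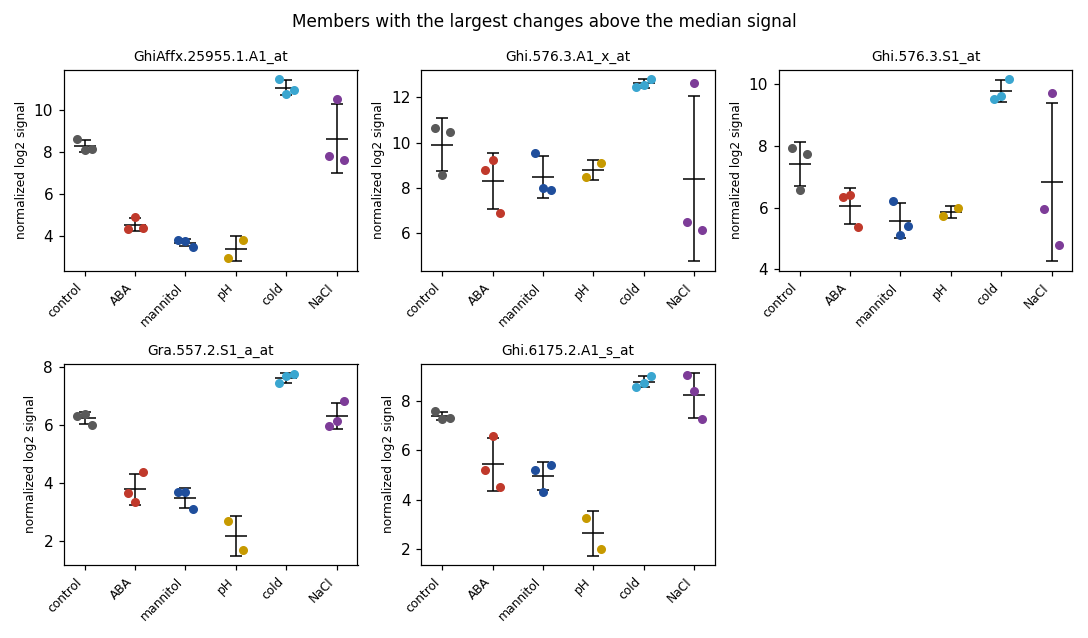
Normalized log2 signal (vertical axis, a separate scale in each panel) of the 5 members with the 3 largest cold rises and the 3 largest mean falls among those with control signal above the median, with points for arrays and bars for mean ± SD. In each panel the cold arrays lie above all control, ABA, mannitol and pH arrays, and the NaCl arrays of Ghi.576.3.A1_x_at range from 6.10 to 12.62. On the deposited scale only GhiAffx.25955.1.A1_at and Gra.557.2.S1_a_at are lower in all 3 treatments.

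The 56 members came from 53 target sequences, since Ghi.576.3, Ghi.794.1 and Gra.2885.1 were each represented in both orientations. In Ghi.794.1 both probe sets followed 1 course: Ghi.794.1.A1_at was at 6.16, 6.23 and 5.89 in control and 8.21, 7.52 and 7.88 in cold, and Ghi.794.1.S1_s_at at 9.02, 8.91 and 8.67 in control and 10.30, 9.64 and 9.99 in cold. Their changes under ABA were -1.59 and -1.16, under mannitol -2.75 and -2.02 and under pH -2.52 and -1.84. Probe sets of opposite orientation read opposite strands, so the order of the falls, smallest in ABA, was the same on both. For 7 further members the array holds a probe set of the other orientation that was no member. The partner had the 4 signs of the rule in 4 of these 7. Ghi.6175.2.S1_s_at, at 10.61 in control, differed from control by -1.54, -2.18 and -4.00 in ABA, mannitol and pH and by 0.94 in cold, just short of the rule. Ghi.3714.1.A1_at, at -0.50 in control and thus at the floor of the array, lay on the other side of control in the 3 treatments. Its differences were 2.15, 1.49 and 3.12, against -2.41, -2.25 and -1.11 for its member partner Ghi.3714.1.S1_at, which was itself low, at 2.96 in control. Ghi.2511.1.S1_at, at 3.07 in control, was also higher in the 3 treatments, by 1.92, 1.47 and 1.51. Its member partner Ghi.2511.1.A1_s_at lay at -0.12 in control. GhiAffx.31774.1.A1_at, at 4.01 in control, was lower in the 3 treatments and also in cold (-1.16). Its member partner GhiAffx.31774.1.S1_at lay at 0.43 in control. In these cases the member had the lower control level of the pair.

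Cold replicate 3 set some members apart from the rest. It lay at least 1 below both other cold arrays in 11 members (11% of all probe sets). GraAffx.30551.1.S1_s_at was at 10.79, 10.68 and 9.08 in cold and 8.98, 8.96 and 9.16 in control. GraAffx.32667.1.S1_s_at was at 10.39, 10.49 and 8.13 in cold and 8.61, 8.79 and 8.15 in control. GhiAffx.38761.1.S1_at was at 9.47, 9.38 and 6.91 in cold and 6.52, 7.27 and 7.03 in control. In these 3, as in GhirRNA.4.1.S1_s_at, cold replicates 1 and 2 were close to each other and replicate 3 was at the level of control or below it. Other members with clear signal had even cold arrays, among them GhiAffx.4158.1.S1_at at 8.11, 7.92 and 8.07. The part that the actin ratio of 7.22 in cold replicate 3 has in this was not tested.

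The comparison with NaCl asks how these probe sets behaved under a stress that the rule left out. A single limma fit covered the 17 arrays, and a call required a 2-fold difference and a p of 0.05 or less after Benjamini-Hochberg adjustment over the 24029 probe sets. By this test 0 members were called higher and 0 lower, against 0.466% and 0.229% of all probe sets. These shares, 167 probe sets in all, depended on the arrays of the other conditions in the fit. With only the control and NaCl arrays fitted, or only control, cold and NaCl, 0 of all probe sets were called. A count of 0 members thus says little about the members. With the p left unadjusted and the fold kept, 5 members were higher (4.71% of all) and 0 lower (3.72%). SAM, the permutation test named in the study's methods, called 0 members and 1 of all probe sets. The median change of the members was 0.36, against -0.03 over all probe sets, and 38 of 56 were above 0 (48% of all). Without normalization the members' median was -0.30 and that of all probe sets -0.79. The standard errors of single members ranged from 0.33 to 1.51, with a median of 0.83, so that a 2-fold change was little more than the standard error of a typical member.

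Single members therefore carry wide errors in NaCl. The smallest p belonged to GhirRNA.1.1.S1_at, which was at 12.62, 12.32 and 10.36 in NaCl against 10.12 to 10.28 in control, a change of 1.57 (standard error 0.51, limma adjusted p = 0.175). NaCl replicates 1 and 2 were at the level of the cold arrays and replicate 3 was close to control. The other 4 members past both the fold and the unadjusted p were GhiAffx.1557.2.S1_at (1.93, from a low control level of 3.47), GhiAffx.4526.1.S1_at (1.41), GhiAffx.1589.11.A1_at (1.38) and GhiAffx.8816.1.S1_at (1.06). Their limma adjusted p ran from 0.231 to 0.322.

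The 3 NaCl arrays did not behave alike over the members. The median of the members' difference from the control mean was 0.57 in NaCl replicate 1, 1.36 in replicate 2 and -0.46 in replicate 3, while the medians of all probe sets were 0.03, 0.02 and -0.03. Replicate 2 was thus close to the cold arrays, whose medians were 1.83, 1.47 and 1.44, and replicate 3 was below control. Over the probe sets that were no members, the array labelled NaCl replicate 2 correlated most with cold replicate 2 (r = 0.941 across probe sets, which are not independent). Its correlation with NaCl replicates 1 and 3 was lower (0.799 and 0.873). NaCl replicate 3 in turn correlated more with the control arrays (0.915 to 0.924) than with NaCl replicates 1 and 2 (0.856 and 0.873). Whether the label of NaCl replicate 2 is right could not be checked, so each NaCl mean may include an array of another condition. Without NaCl replicate 2 the members' median change in NaCl was -0.04. Replicate 2 was the highest of the NaCl arrays in 29 members (35.8% of all probe sets) and replicate 3 the lowest in 33 (28.3%). Replicate 2 was at least 1 above control in 34 members, replicate 1 in 21 and replicate 3 in 6. The shares of all probe sets at this distance were not counted, so these numbers describe the members only. NaCl replicate 2 had the smallest actin ratio of the 3, at 2.70, and NaCl replicate 1 the lowest deposited signal of all arrays, with a trimmed mean of 18.1. The part of either in the members' values was not tested.

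**Figure D4:**
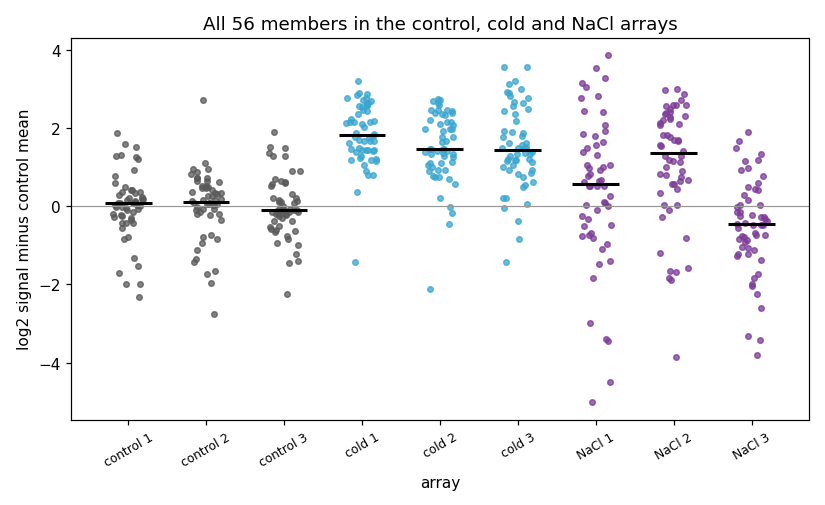
Difference in log2 signal from the mean of the 3 control arrays (vertical axis) for the 56 members in each control, cold and NaCl array, with points for members and black lines for medians. The medians are 1.83, 1.47 and 1.44 in cold and 0.57, 1.36 and -0.46 in NaCl.

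Calls in NaCl followed the array that was left out. Without NaCl replicate 3, 6 members were called higher (1.24% of all probe sets) and 0 lower (1.15%). These were GhirRNA.1.1.S1_at (2.26), GhiAffx.4526.1.S1_at (2.26), GhiAffx.1557.2.S1_at (2.76, low in control), GhiAffx.4158.1.S1_at (1.68), GhiAffx.38970.1.S1_at (1.62) and GhiAffx.14606.1.A1_at (1.58), with limma adjusted p from 0.00839 to 0.0470. Without NaCl replicate 2, 0 were called higher (2.32% of all) and 2 lower (1.89%), and these were the probe sets of Ghi.576.3, with changes of -3.62 for Ghi.576.3.A1_x_at (limma adjusted p = 0.0227) and -2.05 for Ghi.576.3.S1_at (limma adjusted p = 0.0404). In the arrays themselves Ghi.576.3.A1_x_at was at 6.46, 12.62 and 6.10 and Ghi.576.3.S1_at at 5.94, 9.69 and 4.80 in NaCl. Replicate 2 had the level of cold, and replicates 1 and 3 lay below every control array and, in Ghi.576.3.A1_x_at, below every array of ABA, mannitol and pH as well. Without NaCl replicates 1 and 2 and cold replicate 3 together, Ghi.576.3.S1_at (-2.63, limma adjusted p = 0.0495) and GraAffx.30551.1.S1_s_at (-1.79, limma adjusted p = 0.0175) were called lower, 1.36% of all probe sets being called lower there, and 0 higher (1.09%).

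Gra.557.2.S1_a_at was steadier, with 5.97, 6.14 and 6.83 in NaCl and 6.31, 6.39 and 6.0 in control, and its change was 0.08 (standard error 0.34, limma adjusted p = 0.931). GhiAffx.25955.1.A1_at was at 7.78, 10.52 and 7.61 in NaCl, with replicate 2 near the cold arrays and the others below control, a change of 0.35 (standard error 0.59, limma adjusted p = 0.820). Ghi.6175.2.A1_s_at was at 9.05, 8.40 and 7.26, with replicates 1 and 2 near cold, a change of 0.84 (standard error 0.55, limma adjusted p = 0.494). All 3 NaCl arrays lay above all control arrays in 3 members (7.16% of all probe sets).

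The threshold of the rule fell between probe sets of nearly equal change. Just inside it were Ghi.8801.1.A1_at, with changes of -1.12, -1.66, -1.01 and 1.24 in ABA, mannitol, pH and cold, and Ghi.7985.2.A1_at, with -1.86, -1.01, -2.28 and 1.23. Just outside were Gra.371.1.A1_at, with -3.82, -2.47, -1.56 and 0.99, and Ghi.6507.1.S1_at, with -1.74, -1.90, -1.93 and 0.98. Of these, Ghi.8801.1.A1_at and Gra.371.1.A1_at had control levels of 6.73 and 6.67, and the other two, Ghi.7985.2.A1_at and Ghi.6507.1.S1_at, lay at 0.92 and 0.87, near the floor. When each of the 17 arrays was left out in turn and the rule applied again, 18 of the 56 members passed every time, 10 of them with control signal above the median, 6 from the middle range and 2 from the low range. The member that passed least often did so 9 times of 17.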

How the data were processed

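Labelled RNA was hybridized to Affymetrix Cotton Genome Arrays, and the authors computed MAS5 signal intensities, deposited on a linear scale. The label is biotin, although the labels' protocol speaks of Cy3 and Cy5 pairs. Each of the 17 arrays had 1 column of values, and 0 columns were left unmapped. The 103 Affymetrix control probe sets with the prefix AFFX among 24132 were not used. A further 52 probe sets with the prefix RPTR stayed among the 24029, and 0 of them were members. Signals were log2 transformed, quantile normalized and fitted with limma 3.58.1 (lmFit, eBayes) in R 4.3.3. The number of arrays limits precision.

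The members and gene lists were chosen with earlier results of these data known. Named were the members with the 3 largest cold rises and the 3 largest mean falls above the median signal, members called in NaCl (5 or fewer) and the 2 probe sets on each side of the threshold; no member had a gene name. Other probe sets were named after their values were seen. Promoter motifs were not searched, since no sequences were at hand here.

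SAM used all 20 relabelings of the control and NaCl arrays. In simulated data for NaCl against control (24029 probe sets), 100 probe sets shifted by 1.5 and 100 shifted by 3 (log2) gave 44 and 75 true calls by limma, beside 7 false ones. Each simulated probe set had the same SD in every condition, pooled over the groups. The real conditions differed in spread, so this recovery may not hold for the real NaCl arrays. SAM found 3 and 35, beside 4 false ones. Alternatives were other scalings, 32 added to each signal, fits without the lowest 25% of signals or without single arrays, and other fits. Figures were drawn with matplotlib 3.10.9.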

Additional observations from a re-analysis of the deposited data

How the results depend on the processing

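The members depended on the scaling, and the falls more than the rise in cold. On the deposited scale 1 member was left, and the medians of the 56 were 0.30 in ABA, 0.38 in mannitol, 0.046 in pH and 1.25 in cold. Median centring gave 86 members, 55 of them shared, and a median in ABA of -1.88. Scaling to the trimmed mean gave 41 members, 36 of them shared, and moved the medians to 1.31 in cold and -1.70 in mannitol. With an offset of 32 added to the signals, 13 members remained, all of them above the median signal, and the medians were -0.57, -0.60, -0.65 and 0.81 in ABA, mannitol, pH and cold. Leaving out the lowest 25% of signals kept 30 members, with a median in ABA of -1.55. Leaving out single arrays gave 49 to 84 members, 36 to 56 of them shared, and medians of -1.82 to -1.56 in ABA, -2.02 to -1.91 in mannitol, -2.27 to -1.95 in pH and 1.46 to 1.71 in cold.

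In NaCl, leaving out single arrays gave 0 to 6 members called higher and 0 to 2 called lower, and a median of -0.04 to 0.81, with the lowest without NaCl replicate 2 and the highest without NaCl replicate 3. An unadjusted p gave 5 higher. Without NaCl replicates 1 and 2 and cold replicate 3, a choice made after seeing the data, the rule found 89 probe sets, 47 of them shared. Only NaCl replicate 3 was left in its group there, so no calls in NaCl are given for this choice. With the replicate number as a block (replicate block), 0 members were called higher or lower. The deviations of NaCl and control arrays of 1 number correlated at 0.04 to 0.08, so a shared number was not read as a pair. The cause of these differences was not tested.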

Other observations

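Named transcripts came closest to the course of the members when the threshold was set to 0.5 in place of 1, a choice made after the values were seen. Of the 1396 named probe sets, 7 passed it. Ghi.3933.1.S1_s_at, annotated as CslD1, a cellulose synthase-like D protein of the family that makes cell wall polysaccharides, lay at 5.32 in control, and its differences from control were -1.08 (ABA), -1.53 (mannitol), -3.36 (pH), 0.50 (cold) and 1.02 (NaCl). Ghi.3671.1.A1_at, annotated as KCS10, a 3-ketoacyl-CoA synthase of very long chain fatty acid synthesis, lay at 2.69 in control, with differences of -1.54, -0.87, -1.36, 1.12 and 0.61. The level of the latter is near the floor of the array. No test was made of either, and neither was a member.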
